A study of Drosophila melanogaster with 4 samples.

Results

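In the larval brain, Prospero peaks were recorded for some members of the Dscam and irre cell recognition families and not for others. The families have 8 members here, looked up by exact symbol in the authors' deposited table of genes with Prospero peaks. They are the 4 Dscam genes (Dscam1, Dscam2, Dscam3 and Dscam4) and the 4 genes of the irre cell recognition module (kirre, rst, hbs and sns). The table named 1503 genes that could be matched to the reference annotation, and 4 of the 8 members were among them, namely Dscam1, kirre, rst and sns. All 8 members fall in the longest decile of protein-coding genes, of which 26.3% were in the table.

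Brains dissected from 3rd instar Drosophila melanogaster larvae were profiled by targeted DamID, in which a DNA adenine methylase (Dam) fused to a chromatin protein methylates GATC sites near the places where that protein sits. The 4 samples carried a fusion of Dam with full-length Prospero, with the form of Prospero labelled ΔN7, or with the heterochromatin protein HP1a, or else Dam on its own. All 4 were driven by GMR71C09-GAL4 with temperature-sensitive Gal80, and 3 biological replicates of each are stated in the series' design text. DNA was taken from whole brains, while methylation by Dam depends on the cells in which the driver is active, which the series title describes as central brain neurons and their precursors. Prospero is a homeodomain transcription factor that takes the daughters of neural stem cells out of division and into differentiation. The deposited table holds names and identifiers only, with no peak height, position or replicate value, and does not say which Prospero form it came from. A member could therefore be described only as in the table or not in it, with no test across samples and with sequencing depth unknown.

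Dscam proteins are immunoglobulin surface receptors that bind their own kind. Alternative splicing gives Dscam1 a very large number of isoforms, and recognition between identical isoforms makes sister branches of a neuron repel each other. Dscam2 acts in the visual system, where it keeps the processes of neighbouring cells of a type apart. The irre module works largely by binding between unlike members. Kirre and its paralogue Rst bind Sns and its paralogue Hbs. The module acts in the fusion of muscle founder cells with myoblasts and the sorting of cells in the pupal eye. It also acts in the filtration diaphragm of nephrocytes and the development of the optic lobe. Kirre and Rst are related to vertebrate Neph1, and Sns and Hbs to nephrin.

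Of the Dscam genes, Dscam1 (FBgn0033159) was in the authors' deposited table. Dscam2 (CG42256), Dscam3 (CG31190) and Dscam4 (CG42330) were not among the entries analysed here. The share was thus 1 of 4 (25%, exact Clopper-Pearson 95% interval 0.631 to 80.6). In the irre module, kirre (FBgn0028369), rst (FBgn0003285) and sns (FBgn0024189) were in the table and hbs (CG7449) was not, a share of 3 of 4 (75%, 19.4 to 99.4). These intervals cover counting error only, and they overlap over most of their width, so the families could not be told apart by their shares. Over all members the share was 4 of 8 (50%, 15.7 to 84.3). The background was 7.75% for protein-coding genes (1081 of 13946 on the arms), and 8.44% for all 17807 annotated genes there.

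Counts of pairs within a family follow from its share above, and they are given only to show which paralogues were listed together. Among the 6 pairs that the 4 Dscam genes form, no pair had both genes in the table, 3 pairs had 1 and 3 pairs had neither. Among the 6 pairs of irre module genes, 3 had both and 3 had 1, and each of these last 3 was a pair with hbs. The paralogues kirre and rst were both listed. As rst lies wholly inside kirre, and all 98 listed nested protein-coding genes came with their hosts, these entries are not independent. Their joint listing therefore gives no comparison of paralogues. Of the paralogues sns and hbs, which take the same side of the heterophilic contact, only sns was listed. Of the 4 combinations across the contact, kirre with sns and rst with sns had both genes listed, while kirre with hbs and rst with hbs had 1. Each listed member had exactly 1 entry, with a gene identifier. The 72 entries with a transcript identifier included none of the members, so Dscam1 had a single entry although 75 RefSeq transcripts are annotated for it.

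All 8 members were long, and among long genes the share in the table was higher. Every member fell in the longest decile of protein-coding genes, which begins at 14733 bp. In that decile 26.3% of 1394 genes were in the authors' deposited table (24.0 to 28.6), against 12.5% in the 9th decile and 6.81% in the 8th. In the 7 shorter deciles the share was 3.8% to 5.3%, with overlapping intervals. The members' share of 4 of 8 is therefore best set beside 26.3%, a value that lies within its interval. kirre spans 394149 bp and ranks 5th in length among all protein-coding genes. Dscam1 spans 63976 bp and sns 57603 bp. These 3 listed members are also the longest of the 8 and fall in the longest of 50 length strata, where 38.8% of 278 genes were listed (33.1 to 44.9). Dscam4 spans 43752 bp, Dscam3 31733 bp, hbs 30739 bp and Dscam2 30733 bp, and none of these was listed. In their strata 22.2% to 23.3% of genes were in the table. The exception to this order was rst, which at 23436 bp is the shortest member and was listed, in a stratum with a share of 22.6%. What part of the split between members goes with length was not tested.

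**Figure D1:**
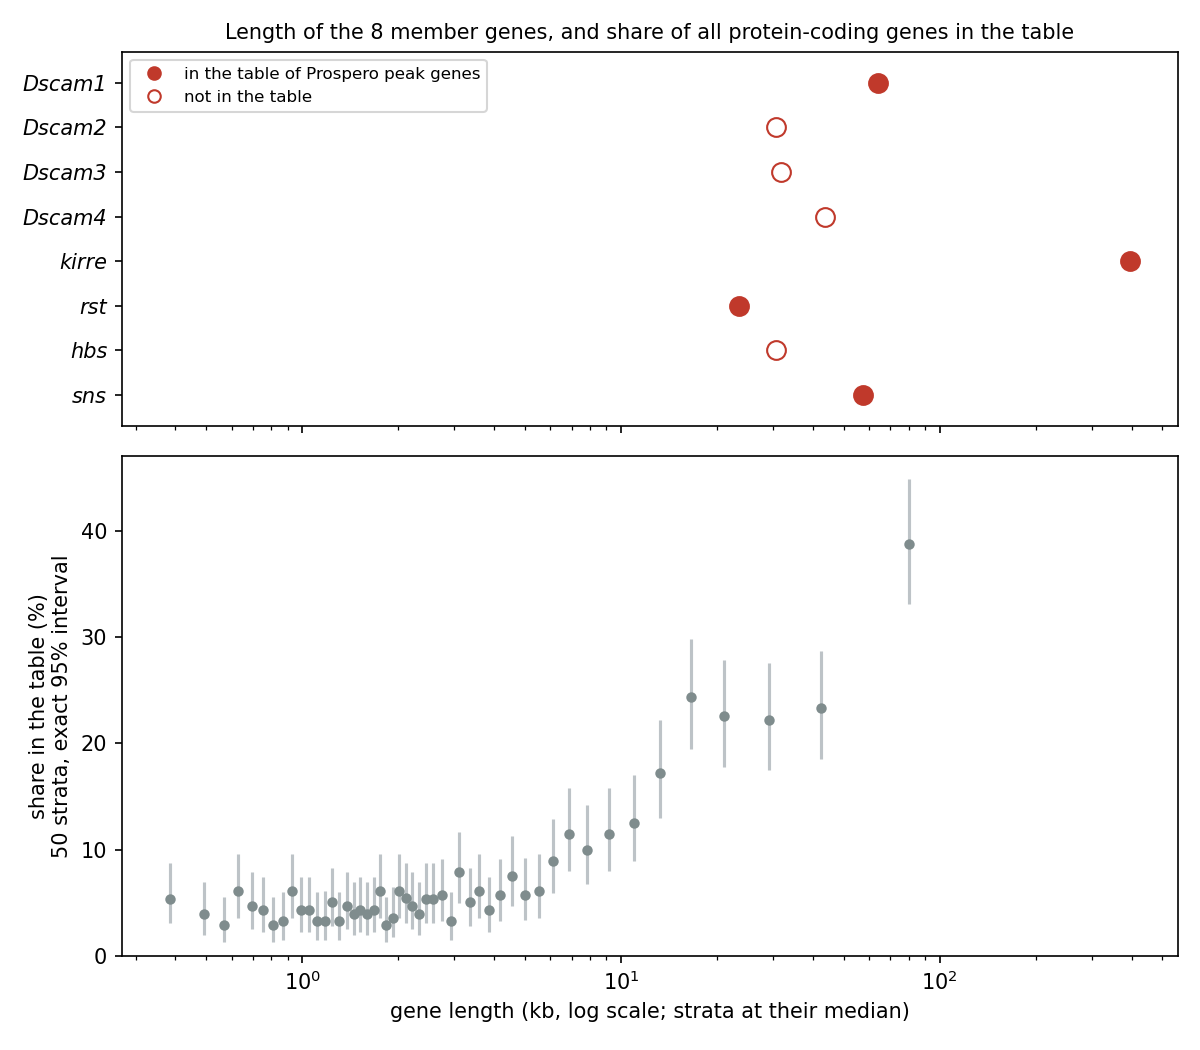
The upper panel gives the length of each of the 8 members in kb on a log axis, with filled points for members in the authors' deposited table and open points for the others. The lower panel gives the share of protein-coding genes in the table in 50 strata of gene length, as points at the median length of each stratum with exact 95% intervals. All members lie in the range where shares were highest, and the 3 longest members and the shortest one were listed.

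The number of annotated transcripts did not separate listed from unlisted members. Listed members had 75 (Dscam1), 7 (kirre), 3 (sns) and 2 (rst) RefSeq transcripts, against 15 (Dscam2), 5 (Dscam4), 4 (Dscam3) and 3 (hbs) in members that were not listed. Listed and unlisted members overlap between 3 and 15 transcripts. In the longest decile as a whole, the share in the authors' deposited table was 16.1% (10.5 to 23.1) for genes with 1 transcript, 32.8% (28.3 to 37.6) for those with 5 to 9 and 30.5% (23.7 to 38.1) for those with 10 or more. Listed genes of that decile had a median of 5 transcripts and the others a median of 4.

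The entries for kirre and rst overlap in position. In the reference annotation rst lies wholly inside the span of kirre on the X chromosome, and so do 21 other genes. Of these 22 genes, 2 were in the authors' deposited table, which were rst and w, the gene of a pigment precursor transporter of the eye. The other 20 were not listed, among them the run of 11 small genes from CG3588 to CG3603 that lies directly on the left of rst. N, which encodes the receptor Notch, begins 0.338 kb beyond the right end of kirre and was listed too. The table does not place the peaks behind these entries.

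**Figure D2:**
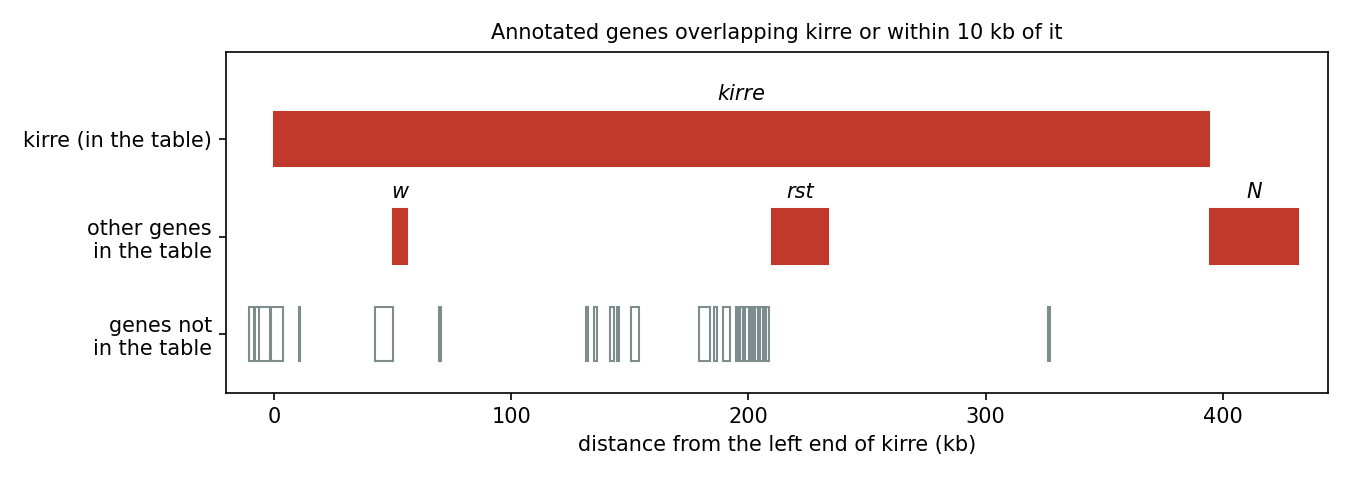
Annotated genes that overlap kirre or lie within 10 kb of it, drawn to scale by their distance in kb from the left end of kirre in the Release 6 assembly. Filled boxes are genes in the authors' deposited table (kirre, w, rst and N) and open boxes are genes not in it.

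Nested genes in the whole table show how far such entries depend on each other. Of the 1575 protein-coding genes that lie wholly inside another protein-coding gene, 98 were listed, and for each of these 98 every enclosing protein-coding gene was listed as well. Counted by combination of host and nested gene, none of 1258 combinations with an unlisted host had the nested gene listed (upper limit of the exact interval 0.293%). The rule that assigned peaks to genes is not given. Under a rule of overlap with the gene span, this count would be fixed at 0 in advance and the interval would estimate no rate. Inside listed hosts other than kirre, 27.8% of 360 combinations had the nested gene listed (23.2 to 32.7), against 9.52% of 21 in kirre (1.17 to 30.4). With non-coding genes included, 232 of 233 listed nested genes had every host listed. In this table a listed protein-coding nested gene thus came with its host, while a listed host came with its nested gene in 102 of 381 combinations (26.8%). The kirre entry therefore cannot be told apart from one that came with rst or w. Of the 22 genes inside kirre, 20 were not listed, so a listed kirre did not bring all its nested genes with it. Those 20 genes are shorter than rst, at most 7662 bp against 23436 bp. The other listed gene, w, spans only 5868 bp, so listed and unlisted genes inside kirre overlap in length. Whether the entries of kirre and rst rest on the same peak cannot be told, because the peaks are not placed. Counted with kirre and rst as 1 locus, a count added after these values were seen, 3 of 7 loci were listed.

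The other listed members stood alone. Dscam1 contains the antisense RNA genes asRNA:CR45129 and asRNA:CR44071, neither of which was listed, and none of the 6 genes that overlap it or lie within 10 kb was in the table. Its nearest listed gene was so, a homeobox gene of eye development, 37.5 kb away. sns contains CG30350, which was not listed, and had no listed gene within 50 kb. Its nearest listed gene, rgr, lay 186 kb away. In the longest decile, 60.7% of the 366 listed genes had another listed gene overlapping them or within 10 kb, against 18.9% of the 1028 genes that were not listed. The entries for Dscam1 and sns were thus not accompanied by entries of adjacent genes.

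Around the members that were not listed, none of the overlapping genes was listed either. This was the usual case, since 1.36% of the 1028 unlisted genes of the longest decile had a listed gene overlapping them. hbs contains 3 genes (CG43101, Obp51a and lncRNA:CR45256), Dscam4 partly overlaps CG7213, and Dscam2 and Dscam3 overlap no annotated gene. Dscam2 had the closest listed neighbour, corn, which ends 2.13 kb to its left. The gene between them, CG8620, was not listed. The nearest listed genes were CG13678 for Dscam4 (15.7 kb), ckn for hbs (30.6 kb) and Prx3 for Dscam3 (39.6 kb).

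**Figure D3:**
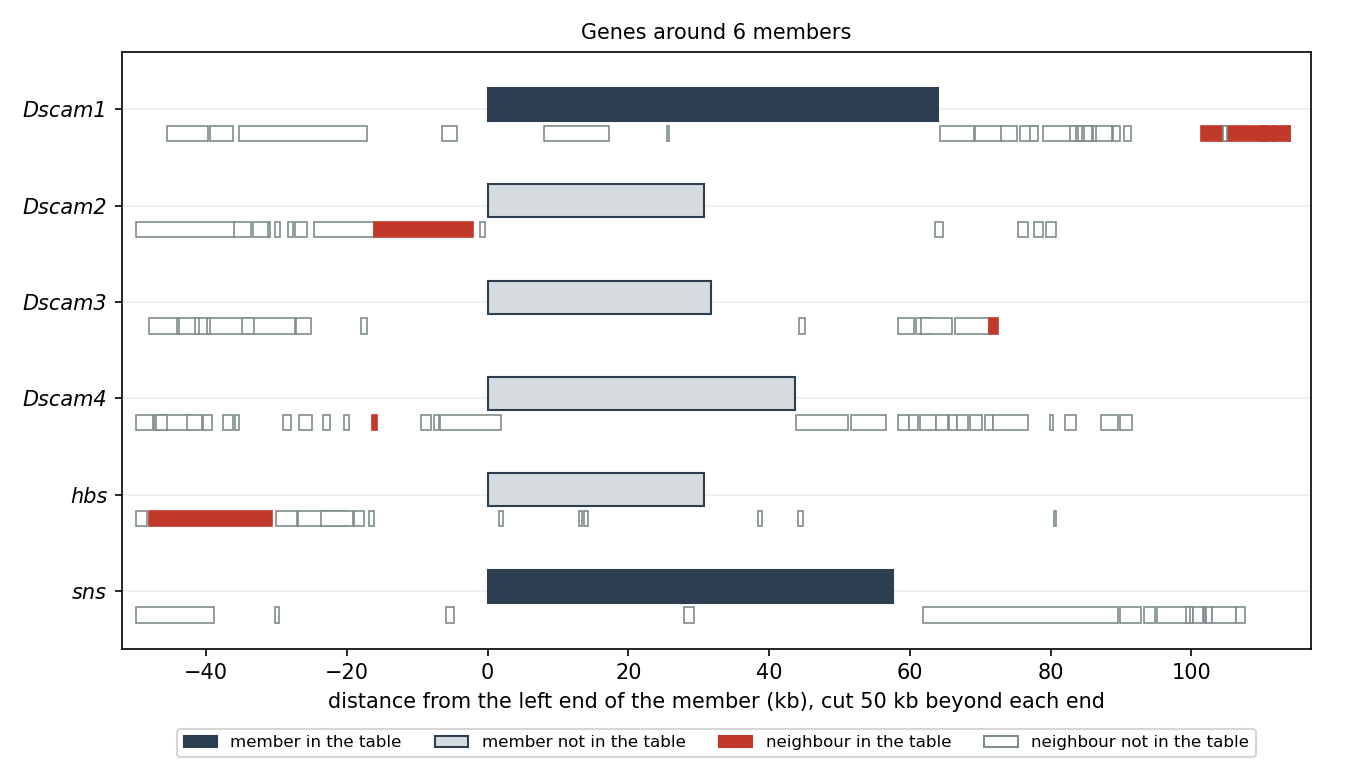
Genes around Dscam1, Dscam2, Dscam3, Dscam4, hbs and sns, by distance in kb from the left end of the member and up to 50 kb beyond its ends. Dark boxes are members in the authors' deposited table, pale boxes are members not in it, and filled small boxes are listed neighbours. The listed genes nearest to Dscam1 lie 37.5 kb away, sns has none in view, and corn stands 2.13 kb from Dscam2.

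Of 14 genes linked to Dscam receptors as partners or regulators, 9 were listed (64.3%, 35.1 to 87.2), beside 7.75% of all protein-coding genes. The list was chosen with earlier results of these data known, and its share was not tested. They were dock, an adaptor that binds the cytoplasmic tail of Dscam1, its effector kinase Pak, the kinase Abl, the Netrins NetA and NetB, the netrin receptor fra, the guidance ligand sli, uzip, and mbl, a splicing regulator. The axon guidance gene trio, the kinase wnd, the ubiquitin ligase hiw, the RNA-binding protein gene Fmr1 and the receptor phosphatase gene Ptp69D were not in the table. The median length of this list was 33.6 kb, against 2.16 kb for all protein-coding genes, and 9 of its genes fell in the longest decile, 7 of them listed (77.8%, beside 26.3% of all genes of that decile). Thus Dscam1 and its adaptor dock were both listed, while trio, which acts with dock and Pak in axon guidance, was not.

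For the irre module, 6 of 20 partner and myoblast fusion genes were listed (30%, 11.9 to 54.3, beside the same 7.75%). They were mbc, an exchange factor for Rac, siz, an exchange factor for Arf GTPases, the WASp-binding protein gene Vrp1, dock, which also stands among the Dscam partners, and the junction scaffold genes pyd and cindr. The members not in the table were Arf51F, blow, Ced-12, Crk, Hem, lmd, Mec2, Rac1, Rac2, rols, SCAR, sing, Src64B and WASp, of which the last 4 were named beyond the naming rule. The list had a median length of 6.11 kb. Of its 7 genes in the longest decile, 5 were listed (71.4%, beside 26.3%), and rols and Src64B were not.

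Among 21 other immunoglobulin surface proteins, 8 were listed (38.1%, 18.1 to 61.6, beside 7.75% of all protein-coding genes). They were sdk, ed, Fas2, Fas3, Lac, klg, Ama and plum. Echinoid (ed, 84.4 kb) was listed and its paralogue fred (88.8 kb) was not. Of the paralogues boi (25.9 kb) and ihog (3.35 kb), neither was listed. Other paralogues in this list were not compared. The first 10 unlisted genes in alphabetical order were babos, bdl, boi, Bsg, Cont, fipi, fred, hig, ihog and Nrg. In the longest decile 6 of 14 genes of this list were in the table (42.9%, beside 26.3% of all genes of that decile). The 42.9% lies within the interval of the members' own share (15.7 to 84.3).

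**Figure D4:**
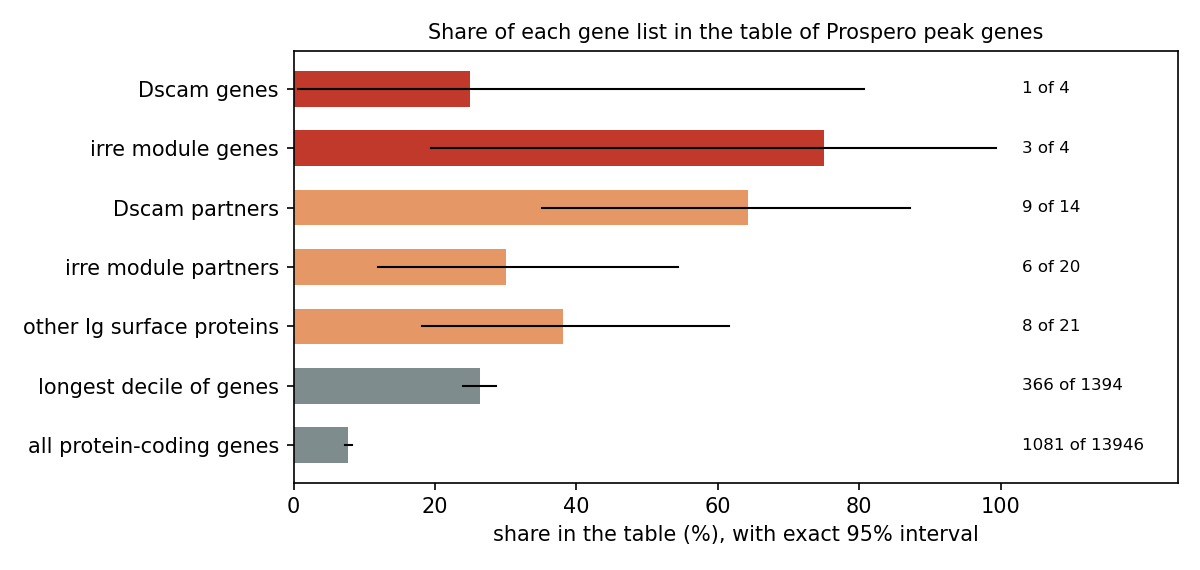
Share in the authors' deposited table, in percent with exact 95% intervals as lines, for the Dscam genes, the irre module genes, their partners, other immunoglobulin (Ig) surface proteins, the longest decile of genes and all protein-coding genes. The interval of the Dscam genes (1 of 4) contains both 7.75% and 26.3%, and that of the irre module genes (3 of 4) contains 26.3%.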

How the data were processed

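Per the labels, each fusion profile was taken against Dam alone and averaged. Per the file headers, the authors deposited a list of genes with Prospero binding peaks, in 3 columns of names with no numeric unit. The sources used here do not give the aligner, peak caller, threshold, build or the rule that assigned peaks to genes. The table held 1584 entries, of which 1512 had a gene identifier. Current symbols (1457 entries) or older symbols and names (49) linked them to RefSeq genes of assembly Release 6 plus ISO1 MT, and 6 stayed unmatched. Gene lengths, nesting and neighbours come from that table, and no coordinates are printed because the build behind the list is unnamed. Not every entry may be present in the copy analysed, and not listed means not among the entries analysed here. Intervals are exact Clopper-Pearson 95% intervals for counting error only, and genes are not independent.

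The members and 3 related lists were chosen with earlier results of these data known, and no test was run on them. The text names all members, neighbours within 10 kb that were listed, all listed genes of each related list and up to 10 unlisted ones in alphabetical order. Other neighbours were named after their values were seen. The matching was checked on simulated tables. Tools were pandas 2.3.3, scipy 1.17.1, numpy 2.4.6 and matplotlib 3.10.9, under Python 3.11.15.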

Additional observations from a re-analysis of the deposited data

How the results depend on the processing

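The count of 4 listed members was the same with the symbol column alone, the gene name column alone, entries with a gene identifier only, and older symbols added. It was 3 with kirre and rst as 1 locus. With all annotated genes as background the share was 8.44% in place of 7.75%. In 50 length strata in place of deciles, the share listed among genes of similar length was 38.8% for Dscam1, kirre and sns, 23.3% for Dscam4, 22.6% for rst and 22.2% for Dscam2, Dscam3 and hbs, against 26.3% in the longest decile. These 50 strata differ within the longest decile, which the deciles do not show. Combinations of a member and a listed neighbour numbered 5 within 10 kb, 3 with overlap only and 12 within 50 kb, as the wider window takes in more genes. In each of these counts kirre and rst enter from both sides, as each is a member and a neighbour of the other. Within the longest decile the share of irre module partners was 71.4% of 7 genes, against 30% of all 20. No paired analysis was possible because the table holds no values per sample. Matching by FlyBase identifier, protein identity between paralogues and Prospero motifs in promoters were planned and not run, since identifiers for all genes and sequences were not used here. Listing is a threshold call of unknown depth, so a gene not listed is not shown to be unbound.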

Other observations

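Inside kirre 2 of 22 genes were listed, against 3 of 4 inside so, the listed gene nearest to Dscam1. Over all listed protein-coding hosts, 26.8% of 381 combinations with a nested protein-coding gene had that gene listed. The sets inside kirre and so are unlike, since 21 of the genes inside kirre are protein-coding and those inside so are mostly lncRNA genes. CG11145, lncRNA:CR44203 and lncRNA:CR44204 lie inside so, 46.0 kb, 47.6 kb and 49.8 kb from Dscam1, and were listed with it, while lncRNA:CR44202, also inside so, was not. Of 1831 pairs of partly overlapping protein-coding genes, 41 had both genes in the authors' deposited table, 122 had 1 and 1668 had neither.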
